A study of Rattus norvegicus with 10 samples.

Results

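The genes described here encode stress neuropeptides, tachykinins and their receptors. They were chosen by symbol from a list of 9 genes (Crh, Crhr1, Crhbp, Adcyap1, Adcyap1r1, Tac1, Tac3, Tacr1 and Cort), taking for each symbol the deposited gene with the highest mean level. Of the 9, 8 were measured, each by 1 gene of the 32623 in the table, and Cort was not analysed here. Poly(A) RNA of the cerebral cortex was sequenced from 5 control and 5 EA libraries of adult male Sprague-Dawley rats. EA (electroacupuncture) rats had needles at the points GV20 and GV26 driven by a stimulator, and control rats were only bound, for the same length of time. Both groups were then anaesthetized with pentobarbital and perfused with saline before the cortex was removed. The study asked how EA alters the cortical transcriptome, with the blood-brain barrier in view. Each library is taken to be a separate rat, which is not stated outright, so the p-values measure the spread between these libraries. Whether both groups were treated and dissected on the same days is not given.

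CRH, the peptide that starts the pituitary stress response, is also made by cortical interneurons. It acts through the receptor CRHR1, and the secreted protein CRHBP binds it and limits how much reaches the receptor. PACAP, encoded by Adcyap1, acts through its receptor PAC1, encoded by Adcyap1r1, and both CRHR1 and PAC1 raise cAMP. The tachykinins substance P and neurokinin A come from Tac1 and neurokinin B from Tac3, and the substance P receptor NK1, encoded by Tacr1, signals through Gq and phospholipase C.

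Deposited counts summed to between 55223193 and 61707722 per control library and between 47843590 and 60941939 per EA library. Each sum exceeded the raw reads that the study lists for that library, so the counts are not a plain tally of reads. Levels are given as FPKM, the fragment counts scaled by transcript length and sequencing depth that the authors computed, so levels of different genes can be set side by side. Tests used the counts of the 15169 genes with at least 0.5 FPKM in at least 5 of 10 libraries, in edgeR's quasi-likelihood test with Benjamini-Hochberg adjustment over all of them. A gene was called when its fold change exceeded 1.2 and its adjusted p was below 0.05. Markers of cortical excitatory layers summed to between 366 and 415 FPKM in control and between 363 and 418 FPKM in EA. The 7 markers of hypothalamic peptide neurons, a rich source of several of these peptides, summed to between 1.77 and 2.94 FPKM in control and between 1.35 and 2.34 FPKM in EA, with Oxt at most 0.195 FPKM and Hcrt at most 0.11 FPKM. The striatal markers Drd1 and Drd2 were low in all libraries, at 0.987 to 1.97 FPKM and 0.789 to 1.82 FPKM, and Six3 was at 0. Other lists were less alike between groups. All 6 oligodendrocyte markers had estimates below 0 in EA, 3 of them at an unadjusted edgeR p under 0.05. So had all 3 blood markers tested, 2 of them at that p. Of all genes, 13.7% reached that p in either direction, and 0 of these markers were called. Summed levels of both lists overlapped between groups, for blood at 7.68 to 43 FPKM in control and 6.3 to 15.9 FPKM in EA. In bulk tissue, fewer cells of a type and less RNA per cell cannot be told apart.

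None of the 8 measured genes was called higher or lower in EA cortex. All 8 passed the expression filter, 7 of them in every library and Tacr1 in 6 libraries. The estimate lay above 0 for 6 genes and below 0 for 2, with a median log2 fold change of 0.072 against -0.0018 over all genes tested. Over all genes edgeR called 3, or 0.0198%, so a count of 0 among 8 genes is no result about these genes. At an unadjusted p under 0.05 there were 0 of the 8 with edgeR and 0 with DESeq2, against 13.7% of all genes with edgeR. All 8 genes had overlapping groups, as most genes did. Only 3.11% of all genes had groups that did not overlap, so this too is no result about these genes. By the chi-square of counts per degree of freedom, control 1 differed most from the other controls (42.7 to 53.2, against 21.8 to 31.5 among the rest) and EA 3 most from the other EA libraries (37.4 to 58, against 32.9 to 41.9 among the rest). None of the 8 genes was called without either of them. EA 2 and EA 5 were left out together because of earlier results of these data. Without both of them 0 of the 8 were called and 0 were at an unadjusted p under 0.05, with log2 fold changes of -0.032 for Crh, -0.071 for Crhr1, 0.001 for Crhbp, 0.164 for Adcyap1, -0.489 for Adcyap1r1, 0.184 for Tac1, 0.137 for Tac3 and -0.486 for Tacr1.

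**Figure D1:**
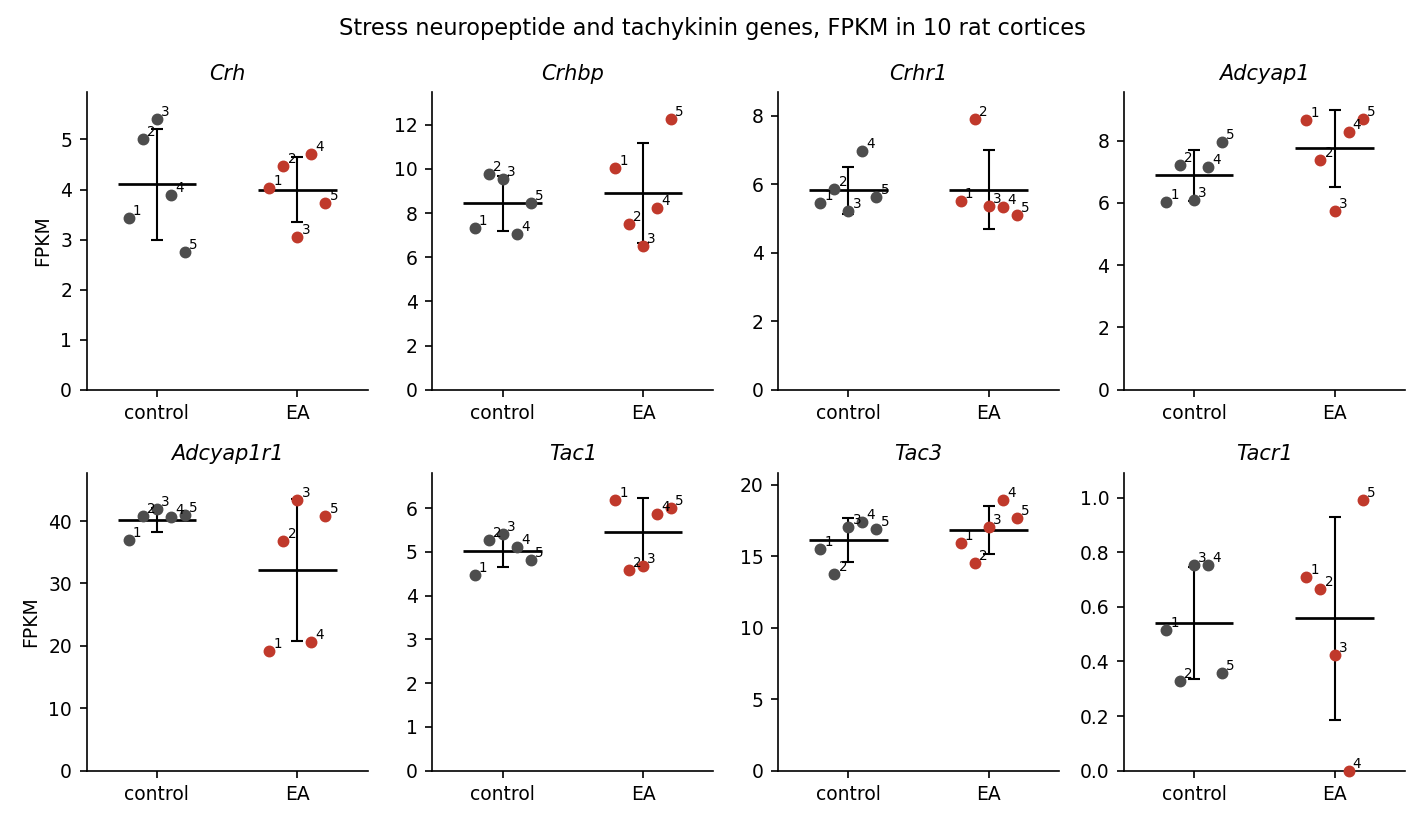
FPKM of the 8 measured genes (vertical axes, linear from 0, 1 panel per gene) in the 5 control and 5 EA libraries (points, marked with the replicate number); bars show the group mean and whiskers 1 SD. The groups overlap in every panel, EA 1 and EA 4 lie apart from the other 8 libraries for Adcyap1r1, and EA 4 lies at 0 for Tacr1.

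The genes spanned a wide range of levels, in an order that was largely the same in each rat. The receptor gene Adcyap1r1 was the most abundant (36.2 ± 8.8 FPKM, SD, n = 10) and lay above Tac3 (16.5 ± 1.56 FPKM) in 10 of 10 libraries. Tac3 in turn lay above Crhbp (8.68 ± 1.75 FPKM) in 10 of 10. Crhbp exceeded Adcyap1 (7.33 ± 1.09 FPKM) in 8 of 10 libraries and Adcyap1 exceeded Crhr1 (5.83 ± 0.9 FPKM) in 9 of 10. The neighbours Crhr1 and Tac1 (5.24 ± 0.615 FPKM) did not differ beyond their spread, since Crhr1 was the higher in 6 of 10 libraries. Tac1 exceeded Crh (4.05 ± 0.854 FPKM) in 9 of 10. Tacr1 was the lowest at 0.549 ± 0.283 FPKM, below Crh in 10 of 10.

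The corticotropin-releasing genes had nearly the same mean levels in both groups. Crh (ENSRNOG00000012703, Rnor_6.0 chr2:104459999-104461863, minus strand) was measured at 3.43, 5.01, 5.41, 3.90 and 2.75 FPKM in control 1 to 5 and at 4.03, 4.47, 3.04, 4.70 and 3.74 FPKM in EA 1 to 5. Every EA value lay inside the control range. The log2 fold change of Crh, EA against control, was -0.015 (SE 0.186), with a 95% interval that allows 0.747 to 1.31 times the control level (edgeR adjusted p = 0.984).

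Crhr1 (ENSRNOG00000004900, chr10:92191718-92232645, plus strand), the main CRH receptor of the cortex, gave 5.44, 5.85, 5.22, 6.98 and 5.61 FPKM in control and 5.51, 7.90, 5.36, 5.34 and 5.10 FPKM in EA. EA 2 was the highest of the 10 libraries and the other 4 EA libraries lay between 5.1 and 5.51 FPKM. Its log2 fold change was 0.030 (SE 0.136), or 0.831 to 1.25 times the control level within the 95% interval (edgeR adjusted p = 0.951), and without EA 2 it was -0.103.

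Crhbp (ENSRNOG00000017890, chr2:25141471-25153334, minus strand), which encodes the binding protein, gave 7.31, 9.77, 9.56, 7.07 and 8.47 FPKM in control and 10.06, 7.53, 6.52, 8.21 and 12.26 FPKM in EA. The highest and the lowest library were both EA, EA 5 and EA 3. The log2 fold change was 0.099 (SE 0.157), with an interval of 0.845 to 1.36 times the control level (edgeR adjusted p = 0.832), and it fell to -0.033 without EA 5. Message for the binding protein exceeded that for its ligand in every library: the ratio of Crh to Crhbp FPKM lay between 0.325 and 0.566 (median 0.513) in control and between 0.305 and 0.593 (median 0.467) in EA.

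The PACAP ligand and its receptor had estimates of opposite sign, neither past the threshold. Adcyap1 (ENSRNOG00000049882, chr9:121706979-121725716, minus strand) was measured at 6.04, 7.22, 6.09, 7.16 and 7.96 FPKM in control and 8.68, 7.39, 5.75, 8.27 and 8.69 FPKM in EA. EA 1, EA 4 and EA 5 lay above all control libraries, while EA 3 lay below all of them. Adcyap1 had a log2 fold change of 0.190 (SE 0.112), an interval of 0.963 to 1.35 times control (edgeR adjusted p = 0.482). Of the members' 151 alternative values, 1 was at an unadjusted p under 0.05, that of Adcyap1 without EA 3 (log2 fold change 0.276), and it did not pass correction (edgeR adjusted p = 0.212).

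Adcyap1r1 (ENSRNOG00000012098, chr4:85662892-85711696, plus strand, 4 annotated transcripts) was steady in control cortex at 36.9, 40.7, 41.9, 40.6 and 41.0 FPKM. In EA cortex it was measured at 19.2, 36.8, 43.4, 20.7 and 40.8 FPKM. EA 1 and EA 4 stood at 47.3% and 50.7% of the median control level, whereas EA 2, EA 3 and EA 5 stood at 90.4%, 106% and 100%. The coefficient of variation was 4.76% in control and 35.4% in EA.

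These were deeply counted libraries for this gene: EA 1 held 7114 and EA 4 held 7606 counts of Adcyap1r1, against 13849 to 16880 in the other 8. The part of counting error in that gap was not tested, and the counts are not a plain tally of reads. The group comparison did not pass the test, with a log2 fold change of -0.294 (SE 0.208) and an interval of 0.596 to 1.12 times control (edgeR adjusted p = 0.572). The estimate moved with single libraries, to -0.154 without EA 1 and -0.167 without EA 4, and to -0.489 without EA 2 and EA 5 together (adjusted p = 0.592). The ratio of Adcyap1r1 to Adcyap1 FPKM lay between 5.15 and 6.87 in control and between 2.22 and 7.54 in EA.

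A search chosen after these values were seen asked how many genes share the same low libraries. Of 11338 genes with at least 200 counts in each of the other 8 libraries, 2 were below 60% of the lowest of those in both EA 1 and EA 4. One was Adcyap1r1. The other was LOC100911851 (ENSRNOG00000061155, chr11:27566879-27577691, plus strand), with 0 counts in EA 1, where up to 3 counts are allowed, 19 in EA 4 and 529 to 983 elsewhere. No other pair of libraries was searched, so how rare such a match is was not measured. What sets EA 1 and EA 4 apart for both genes was not tested.

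The tachykinin ligands had the lowest within-group SD of the 8 genes over both groups. Among all genes tested that SD was ordinary, at percentile 52.1 for Tac1 and 43.9 for Tac3. In control cortex alone Adcyap1r1 varied less (coefficient of variation 4.76%, against 7.42% for Tac1 and 9.46% for Tac3). Tac1 (ENSRNOG00000007374, chr4:33638709-33646819, plus strand, 3 annotated transcripts) gave 4.48, 5.28, 5.40, 5.11 and 4.81 FPKM in control and 6.18, 4.58, 4.69, 5.87 and 6.001 FPKM in EA. EA 1, EA 4 and EA 5 lay above all control libraries, the same 3 as for Adcyap1, and EA 2 and EA 3 lay within the control range. The log2 fold change was 0.144 (SE 0.112), an interval of 0.933 to 1.31 times control (edgeR adjusted p = 0.616).

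Tac3 (ENSRNOG00000004229, chr7:71023976-71030582, plus strand) was measured at 15.5, 13.7, 17.1, 17.4 and 16.9 FPKM in control and 15.9, 14.5, 17.1, 18.9 and 17.7 FPKM in EA. Control 2 and EA 2 were the lowest of their groups, and EA 4 and EA 5 lay above all controls. The log2 fold change was 0.085 (SE 0.096), an interval of 0.918 to 1.23 times control (edgeR adjusted p = 0.745). The Tac3 to Tac1 ratio had a median of 3.41 in control and 3.17 in EA, with overlapping ranges of 2.6 to 3.51 and 2.58 to 3.64.

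Tacr1 (ENSRNOG00000005853, chr4:113247795-113414504, plus strand), whose NK1 protein marks sparse cortical interneurons, was low, its mean level at percentile 1.4 of all genes tested. Its counts were 39, 26, 54, 53 and 29 in control and 50, 52, 26, 0 and 72 in EA, or 0.327 to 0.754 FPKM in control and 0 to 0.991 FPKM in EA. EA 5 was the highest library. EA 4 held no count, where every other library held at least 26, and the cause was not tested. The log2 fold change was 0.060 (SE 0.651) and its interval ran from 0.39 to 2.78 times control (edgeR adjusted p = 0.982). Without EA 4 the log2 fold change was 0.381 (adjusted p = 0.655).

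**Figure D2:**
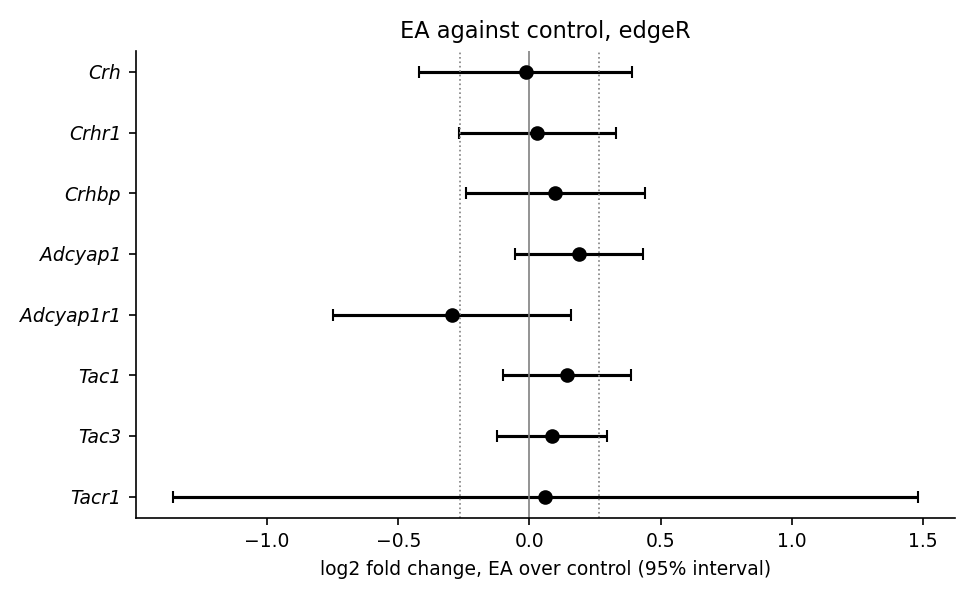
Log2 fold change, EA against control, of each of the 8 genes (points) with its 95% interval from edgeR (horizontal bars); the solid line marks 0 and the dotted lines a fold change of 1.2 in either direction. All 8 intervals include 0, and that of Tacr1, from -1.358 to 1.478, is the widest.

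The precision of these comparisons varied between genes. The within-group SD on the log2(FPKM + 0.1) scale was 0.143 for Tac3 and 0.163 for Tac1, against a median of 0.157 over all genes tested. It was 0.323 for Crh, 0.292 for Crhbp, 0.399 for Adcyap1r1 and 1.03 for Tacr1, which placed these 4 at or above percentile 77 of all genes tested. Exact two-sided permutation of the group labels over 252 assignments, on the same log2 scale, gave unadjusted p = 0.238 for Adcyap1, 0.238 for Adcyap1r1 and 0.31 for Tac1, and between 0.516 and 0.96 for the other 5 genes. The smallest p this test can give with 5 against 5 is 0.00794.

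No pair of the 8 genes was correlated from rat to rat past correction over the 28 pairs computed, and 2 pairs were at an unadjusted permutation p under 0.05. Over all 28 pairs Pearson's r on the log2 scale lay between -0.60 and 0.75 with a median of 0.01, and 14 were above 0. The 7 pairs with Adcyap1r1 are not described singly, a choice made after their values were seen, because EA 1 and EA 4 stand apart from the rest. In the other 21 pairs r lay between -0.43 and 0.75, and 12 were above 0. Crhbp and Tac1 had the highest r, at 0.752 (permutation p = 0.014, adjusted p = 0.387), with Spearman's rho of 0.758 (permutation p = 0.015, adjusted p = 0.278). After group means were subtracted r was 0.770, and without EA 3 and EA 5, the libraries farthest from the median of Crhbp, it was 0.661. Adcyap1 and Tac1 followed with r = 0.677 (permutation p = 0.038, adjusted p = 0.519) and rho = 0.697 (permutation p = 0.030, adjusted p = 0.281). That r was 0.625 with group means subtracted and 0.480 without control 1 and EA 3.

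**Figure D3:**
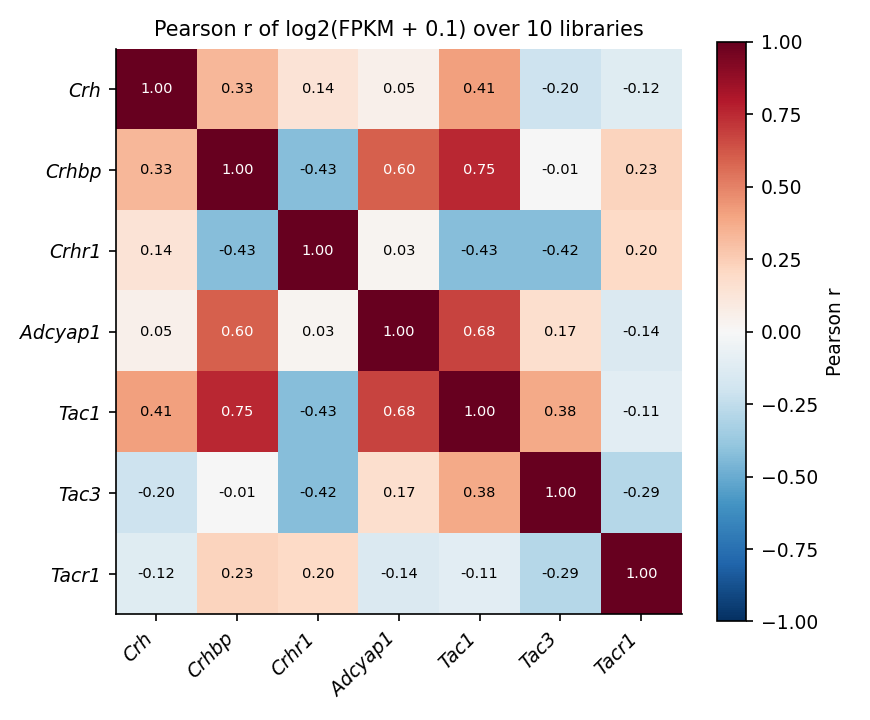
Pearson's r of log2(FPKM + 0.1) over the 10 libraries for each pair among 7 genes (color scale from -1 to 1), with Adcyap1r1 left out. The highest value is 0.75 (Crhbp with Tac1) and the lowest -0.43, and no pair passed correction.

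The promoters of the genes are shown for the cAMP response element, since CRHR1 and PAC1 both act through cAMP. RefSeq (GRCr8) gave the 250 bases before and 50 bases after the start for 7 of the 9 listed genes, Cort included, while Crh and Tac3 were not matched and their promoters were not searched. The core of the element, TGACG or CGTCA on the other strand, was found in 4 of the 7, against 22% of 27457 rat promoters of the same length. The full palindrome TGACGTCA, which contains both forms of the core, was found in 0 of 7 and in 1.91% of all. A match describes the letters and not a bound site. The windows below hold the core of the 3 measured genes with a match, with the core in capitals.
Crhbp, chr2:28439524-28439564, minus strand, core at -100 from the start: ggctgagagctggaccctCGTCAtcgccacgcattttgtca
Tac1, chr4:36645359-36645399, plus strand, core at -206 from the start: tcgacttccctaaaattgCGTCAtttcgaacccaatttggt
Tacr1, chr4:116478530-116478570, plus strand, core at -69 from the start: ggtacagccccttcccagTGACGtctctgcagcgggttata

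For each gene, the 3 genes most like it were ranked among 15168 others by Pearson's r over the 10 libraries after subtraction of group means, and Spearman's rho without that subtraction is given beside it. With so many candidates and 10 libraries, high values of r are found for every gene, so these are descriptions only. Crh was closest to B9d2 (r = 0.923, rho = 0.842), Tmem9 (0.920, rho = 0.939) and Kctd2 (0.918, rho = 0.818). Crhr1 was closest to Vopp1 (r = 0.972, rho = 0.418), Pcdhb8 (0.961, rho = 0.891) and Frmd6 (0.951, rho = 0.806). Crhbp was closest to the potassium channel gene Kcna6 (r = 0.963, rho = 0.915), the glutamate receptor gene Grm8 (0.946, rho = 0.927) and Trpv6 (0.943, rho = 0.927). Adcyap1 was closest to Cep19 (r = 0.961, rho = 0.733), Rabgap1 (0.961, rho = 0.927) and Tsnax (0.960, rho = 0.697). For Tac1 the values without subtraction were lower: Dpm3 (r = 0.976, but 0.601 without subtraction, rho = 0.636), Pih1d1 (0.966, 0.551 and rho = 0.430) and Mks1 (0.959, 0.420 and rho = 0.442). Tac3 was closest to Zfp36l1 (r = 0.934, rho = 0.927), Ehd4 (0.922, rho = 0.903) and AC113837 (0.917, rho = 0.721). Tacr1 was closest to Metrnl (r = 0.960, rho = 0.855), Gpr3 (0.948, rho = 0.685) and Gm22486 (0.938, rho = 0.527). A single library stands apart for Crhr1 (EA 2) and for Tacr1 (EA 4, at 0 FPKM) and can weigh heavily on their r. For Adcyap1r1 no r is given because EA 1 and EA 4 stand apart, and the genes ranked closest, LOC100911851, Zkscan4 and Mapk12, had rho of 0.370, 0.612 and 0.673.

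Other genes of the same peptide systems were taken from 4 lists of 63 genes, of which 62 were measured and 55 tested. None was called by edgeR. At an unadjusted p under 0.05, 5 were higher and 4 lower in EA, or 16.4% of those tested against 13.7% of all genes. DESeq2, the tool the authors used, called 2 of the 55, Scg2 and Crem, and 168 of all 15169 genes fitted. That count rests on 2 genes and is no result about these lists. Without EA 2 and EA 5 together, edgeR called 0 of the 55 and 3 were at an unadjusted p under 0.05, Crem (log2 fold change 0.704), Scg2 (0.276) and Pcsk1 (0.347), while Vip was at 0.162. The share of all genes at that p was not taken in that fit.

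Of the close relatives of the CRH, PACAP and tachykinin genes, 4 of 10 were tested. Vip, which encodes the PACAP-related peptide of a class of cortical interneurons, was measured at 22.1, 24.8, 23.2, 24.6 and 21.6 FPKM in control and 23.8, 26.5, 27.7, 24.6 and 27.8 FPKM in EA. EA 2, EA 3 and EA 5 lay above all controls. Vip had a log2 fold change of 0.190 (SE 0.060), at an unadjusted p under 0.05, and did not pass correction (edgeR adjusted p = 0.229). Of 14 cortical interneuron markers tested, 0 were called, 8 had estimates above 0 and 6 below, with a median log2 fold change of 0.016. Calb1, Gad2, Gad1 and Reln, 4 of the 14, were higher in EA at an unadjusted p under 0.05, which 13.7% of all genes reached in either direction. The summed level of the list was 703 to 795 FPKM in control (median 767) and 626 to 821 FPKM in EA (median 739). The part of interneuron content in the Vip value was not tested.

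The receptor genes tested among the relatives were Vipr2, Tacr3 and Crhr2, and their levels differed. Vipr2, which encodes a receptor shared by VIP and PACAP, averaged 1.69 ± 0.267 FPKM in control and 1.38 ± 0.118 FPKM in EA (SD, n = 5 each), a log2 fold change of -0.264 (SE 0.132, edgeR adjusted p = 0.402). Tacr3, the neurokinin B receptor gene, averaged 3.13 FPKM in control and 3.35 FPKM in EA, a log2 fold change of 0.124 (SE 0.202, edgeR adjusted p = 0.836). Crhr2, the receptor gene for the urocortins, averaged 0.533 FPKM in control and 0.488 FPKM in EA, a log2 fold change of -0.092 (SE 0.402, edgeR adjusted p = 0.95). Below the filter were 5 relatives. Ucn ranged from 0 to 0.899 FPKM, Ucn2 from 0.0679 to 0.463 FPKM, Tac4 from 0 to 0.181 FPKM and Tacr2 from 0 to 0.268 FPKM, while Ucn3 had no count in any library. Vipr1 was not analysed here.

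Somatostatin, whose gene Sst is a close relative of Cort, was abundant at 97.6 ± 4.97 FPKM in control and 94.2 ± 11.6 FPKM in EA, with a log2 fold change of -0.029 (SE 0.072, edgeR adjusted p = 0.897). The receptor genes Sstr1, Sstr2, Sstr3 and Sstr4 had log2 fold changes of -0.086, -0.037, 0.028 and 0.160, with 0 of the 4 at an unadjusted p under 0.05, and Sstr5 had no count in any library.

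Of 18 genes for the processing of neuropeptides and for dense-core granules, 17 were tested. At an unadjusted edgeR p under 0.05, 3 were higher and 1 lower in EA. Of all genes, 13.7% reached that p in either direction. Scg2, which encodes the granule protein secretogranin II, was measured at 36, 46, 42.2, 42.3 and 45.1 FPKM in control and 47.5, 46.3, 45.9, 56.8 and 66.8 FPKM in EA. EA 5 and EA 4 were the highest and EA 3 lay just below the highest control. Its log2 fold change was 0.337 (SE 0.097, edgeR adjusted p = 0.208), while DESeq2 called it at 0.340 (adjusted p = 0.0285). The study names Scg2 among its changed genes in these samples, so this value is not independent evidence.

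Pcsk1, which encodes a convertase that cleaves peptide precursors, was measured at 3.11, 4.18, 4.17, 4.37 and 3.14 FPKM in control and 4.88, 3.77, 4.41, 4.83 and 6.13 FPKM in EA, so 4 of 5 EA libraries lay above all controls. Its log2 fold change was 0.364 (SE 0.129, edgeR adjusted p = 0.258). Pam, the enzyme gene for the C-terminal amidation that substance P, CRH and PACAP carry, had a log2 fold change of 0.134 (SE 0.061, adjusted p = 0.355). Ace, which encodes a peptidase, averaged 2.15 ± 0.352 FPKM in control and 1.65 ± 0.16 FPKM in EA, a log2 fold change of -0.358 (SE 0.133, adjusted p = 0.274). Ace is also made by brain endothelium, and 5 of 5 endothelial markers tested had estimates below 0, 1 of them at an unadjusted p under 0.05, with sums of 54.9 to 71.4 FPKM in control and 51.6 to 55.7 FPKM in EA. Their part in the Ace value was not tested.

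All 29 genes for the cAMP and Gq coupling of the receptors were tested. At an unadjusted edgeR p under 0.05, 1 was higher and 3 lower in EA. Of all genes, 13.7% reached that p in either direction, so the count is no result about this list. Crem, which encodes a cAMP-responsive transcription factor, was measured at 2.45, 2.76, 2.37, 2.51 and 1.96 FPKM in control and 2.99, 3.31, 5.31, 3.17 and 3.26 FPKM in EA. All EA libraries lay above all control libraries, and 3.11% of all genes were separated in this way in either direction. EA 3 was far above the rest. Crem had a log2 fold change of 0.608 (SE 0.164) and did not pass correction (edgeR adjusted p = 0.183), while DESeq2 called it (0.610, adjusted p = 0.0189). Without EA 3 the edgeR estimate was 0.414 (adjusted p = 0.139). Crem too is among the changed genes that the study names in these samples, so this value is not independent evidence.

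The genes with lower levels were Adcy1, an adenylyl cyclase of neurons, with 93.5 ± 6.41 FPKM in control and 78.7 ± 7.68 FPKM in EA and a log2 fold change of -0.222 (SE 0.075, edgeR adjusted p = 0.247), and 2 others. Rapgef3, which encodes the cAMP sensor EPAC1, had a log2 fold change of -0.238 (SE 0.092, adjusted p = 0.29), and Crtc1, a coactivator of CREB, one of -0.143 (SE 0.066, adjusted p = 0.363). None of these passed correction.

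**Figure D4:**
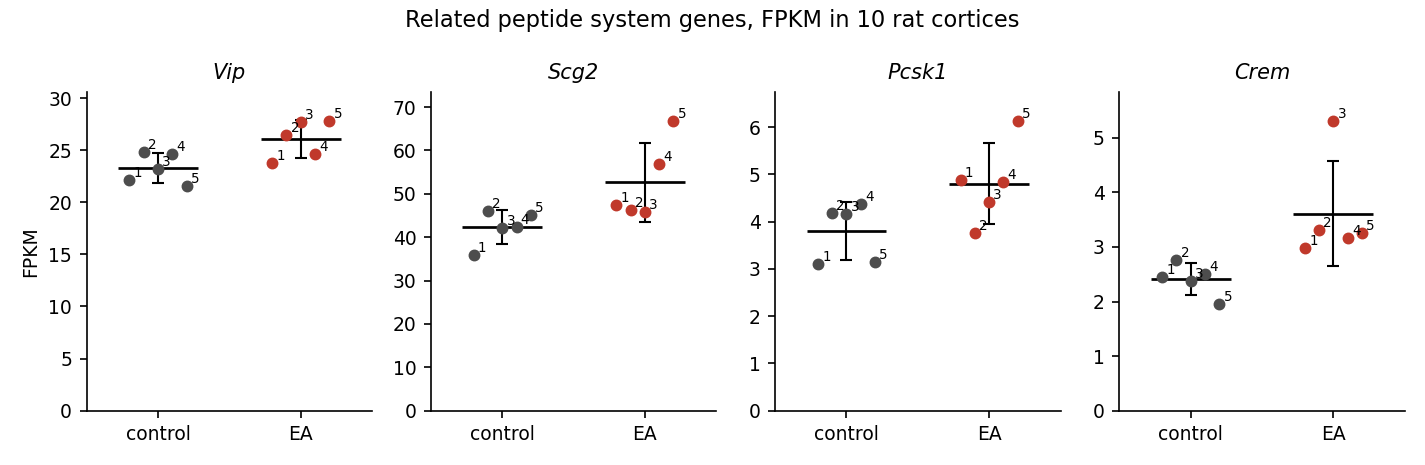
FPKM of 4 related genes, Vip, Scg2, Pcsk1 and Crem, (vertical axes, linear from 0, 1 panel per gene) in the 5 control and 5 EA libraries (points, marked with the replicate number); bars show the group mean and whiskers 1 SD. Groups do not overlap for Crem, as for 3.11% of all genes tested, and overlap for the others. For Crem, EA 3 lies highest at 5.31 FPKM.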

How the data were processed

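Poly(A) RNA of 5 control and 5 EA rat cortices was sequenced as stranded, paired reads. The authors trimmed the reads, aligned them with HISAT2 to Rnor_6.0 and assembled transcripts with StringTie; the submitters' processing notes list Bowtie 0.12.2, StringTie 1.3.0 and HISAT2 2.0. From that assembly the authors derived FPKM per gene using ballgown and deposited it, and 0.0001 in the table, which stands for 0, was read as 0. The counts beside them were deposited as whole numbers, with no account of how the authors obtained them. In each library they sum to more than the raw reads the study lists. The edgeR and DESeq2 tests treat them as read counts all the same, while limma used FPKM.

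Genes reaching 0.5 FPKM in 5 or more of the 10 libraries were fitted with edgeR 4.0.16 (quasi-likelihood F test on TMM-scaled counts, no covariate) in R 4.3.3, and p-values were adjusted by Benjamini-Hochberg over the 15169 genes. Calls needed a fold change above 1.2 with an adjusted p below 0.05, as in the study. Standard errors and 95% intervals came from the same fit. Single genes were also compared by exact permutation of log2(FPKM + 0.1), and pairs of genes by 100000 permutations, with Python 3.11.15 and scipy 1.17.1. The fits across all genes were tested on simulated data. Alternatives were DESeq2 1.42.0 (the study's tool), limma 3.58.1 on log2 FPKM with other pseudocounts, other scalings and filters, leaving out each library, leaving out EA 2 and EA 5 together (chosen from earlier results of these data), and a block for the replicate number.

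The members and gene lists were chosen with earlier results of these data known. All members are named, with every gene of the relative and somatostatin lists, the 4 genes of lowest p in the processing and cAMP lists, and the 3 genes most alike to each member; marker genes beyond these, and the comparison of EA 1 and EA 4 with the rest, were chosen after values were seen. Control and EA libraries of the same number were checked for pairing: their deviations from the group means correlated at -0.003 to 0.061, so the numbers were not taken to pair the rats. No libraries of a group were alike within sampling noise (chi-square per degree of freedom 21.8 to 58). Promoter sequences are from RefSeq (GRCr8), a later build than Rnor_6.0, and were matched by symbol.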

Additional observations from a re-analysis of the deposited data

Results flagged for a closer look

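In 6 of 50 groups of 5 libraries, 1 library lay farther from the others than Dixon's 95% limit allows (gap over range above 0.71); chance alone marks about 1 in 20 groups. Among the stress peptide genes, Crhr1 was high in EA 2 at 7.9 FPKM, with the other EA libraries between 5.1 and 5.51 FPKM. Adcyap1r1 was low in control 1 at 36.9 FPKM, with the other controls between 40.6 and 41.9 FPKM. The low Adcyap1r1 values of EA 1 and EA 4 were not marked, since the limit compares 1 library with its nearest neighbour and these 2 lie together.

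Among related genes, Sstr4 was high in EA 1 at 3.99 FPKM (others 2.06 to 2.61 FPKM) and Pam was low in EA 3 at 46 FPKM (others 54.5 to 57.1 FPKM). Crem was high in EA 3 at 5.31 FPKM (others 2.99 to 3.31 FPKM), the same library that was lowest of all 10 for Adcyap1 and Crhbp. Crtc1 was low in control 1 at 41.3 FPKM (others 49.6 to 52.9 FPKM).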

How the results depend on the processing

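The count of stress peptide genes called was 0 under all 19 alternatives, and the count of correlated pairs past correction was 0 in each alternative run. Of related genes, 2 were called with DESeq2 (Scg2 and Crem) and 0 with edgeR. Over all genes, 3 were called by edgeR, 168 by DESeq2, 0 with the replicate block, 1 without control 5 or without EA 5 and 5 without EA 3. Related genes at an unadjusted p under 0.05 numbered 9, and 3 without EA 2 and EA 5, 5 without EA 5 and 14 without EA 3. The share of all genes at that p was not taken in the fits without these libraries, so these changes are no result about the related genes. Estimates near 0 changed sign, and the cause was not tested. With the replicate number as a block (paired analysis), Crh was 0.013 and Tacr1 -0.154, and Adcyap1r1 was -0.378 (edgeR adjusted p = 0.39). With limma at a pseudocount of 1, Crhr1 was -0.004 and Tacr1 -0.011, and at 0.1 they were -0.006 and -0.261. Without EA 2 and EA 5, Crhr1 was -0.071, Tacr1 -0.486, Crhr2 0.379 and Sstr3 -0.091. Leaving out single libraries gave log2 fold changes of -0.127 to 0.110 for Crh, -0.103 to 0.098 for Crhr1, -0.033 to 0.188 for Crhbp, -0.234 to 0.381 for Tacr1, -0.435 to 0.112 for Crhr2, -0.071 to 0.037 for Sst, -0.025 to 0.075 for Sstr3 and -0.032 to 0.242 for Sstr4. Adcyap1, Adcyap1r1, Tac1 and Tac3 kept their sign under every alternative. Summing several deposited genes of 1 symbol gave no value, since each member has 1, and Tacr1 and Crhr2 gave none at a minimum of 1 FPKM. Tacr1 had at most 72 counts in a library and none in EA 4.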
